A study of Mus musculus with 8 samples.

Results

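Interferon-stimulated genes are switched on when a cell senses viral nucleic acid or interferon. They were followed here in immortalised mouse skin fibroblasts with and without low oxygen. The members are 44 gene names fixed as a list by name. Of these, 42 had a row among the 17091 features of the deposited table, and Ifi27 and Oas2 were not analysed here. The series holds 8 RNA libraries, 2 in each of 4 groups. KO hypoxia and KO normoxia are fibroblasts from C57BL/6 mice labelled mir210lox/lox, and WT hypoxia and WT normoxia are fibroblasts from WT C57BL/6 mice. Cells were kept for 24 hours at 1% oxygen (hypoxia) or 21% oxygen (normoxia). A lox allele is cut only where Cre recombinase has acted, and the labels name no Cre, so KO is used as the name of the libraries. Nothing in the labels tells whether 2 libraries of a group stem from different cultures or animals. The p values here therefore describe how far these libraries lie apart, and that distance may be technical. Each genotype may be a single line, so a difference between genotypes cannot be told apart from a difference between lines.

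In the background biology, RNA sensors such as RIG-I (Ddx58) and MDA5 (Ifih1) lead to secretion of type I interferon. Interferon binds its receptor, and the kinases JAK1 and TYK2 then activate transcription factors that include STAT2, which with IRF9 is part of the complex ISGF3. ISGF3 binds a promoter element called the ISRE and turns on a shared set of antiviral genes. Fibroblasts in culture often keep a low resting level of these genes because they secrete traces of interferon.

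The sequences below show this element in front of members that shared the pattern described next. The ISRE core was searched as GAAANNGAA on both strands of the RefSeq windows (GRCm38.p6), which run from 250 bases before to 50 bases after a gene's start and are 300 bases long. It was found in 21 of the 35 members matched in that table by symbol, against 9.76% of the 27025 genes with such a window. Of the members with the pattern described next, 14 of 22 matched ones held the ISRE core, and of the other members 7 of 13. A match describes letters and not a bound site. The 160 bases before the start are given 5′ to 3′ on the gene's strand, with the ISRE core in capitals (the core reads GAAANNGAA or, on the other strand, its reverse complement). These 6 were chosen, after values were seen, from members whose core lies before the start.
Isg15, chr4:156200819-156200978 (minus strand): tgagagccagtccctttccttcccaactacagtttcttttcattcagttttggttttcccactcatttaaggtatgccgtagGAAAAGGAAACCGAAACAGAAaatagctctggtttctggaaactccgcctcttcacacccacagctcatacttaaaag
Ifit1, chr19:34640729-34640888 (plus strand): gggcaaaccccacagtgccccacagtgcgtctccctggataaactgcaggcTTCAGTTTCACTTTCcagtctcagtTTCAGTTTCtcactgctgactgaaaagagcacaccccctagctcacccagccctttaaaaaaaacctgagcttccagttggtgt
Ifit3, chr19:34583369-34583528 (plus strand): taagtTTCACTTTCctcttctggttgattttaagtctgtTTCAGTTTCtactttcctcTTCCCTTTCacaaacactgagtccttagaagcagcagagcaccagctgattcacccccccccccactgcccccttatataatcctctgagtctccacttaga
Bst2, chr8:71537473-71537632 (minus strand): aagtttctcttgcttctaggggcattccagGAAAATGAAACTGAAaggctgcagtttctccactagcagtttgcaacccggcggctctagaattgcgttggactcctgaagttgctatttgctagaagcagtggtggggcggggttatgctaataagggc
Gbp2, chr3:142620503-142620662 (plus strand): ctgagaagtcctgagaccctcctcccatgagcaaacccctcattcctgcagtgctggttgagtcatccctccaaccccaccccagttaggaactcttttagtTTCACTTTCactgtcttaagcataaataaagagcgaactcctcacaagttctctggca
Irgm1, chr11:48871421-48871580 (minus strand): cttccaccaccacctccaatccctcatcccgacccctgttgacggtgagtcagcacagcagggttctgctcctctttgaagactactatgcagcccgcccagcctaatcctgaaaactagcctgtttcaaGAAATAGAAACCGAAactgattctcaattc

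Many members had low values: 16 of the 42 averaged 100 or more over the 8 libraries, and 9 did not reach the level needed for a test. The values are the authors' normalised read counts, whole numbers with a lowest value of 1. A feature was tested where at least 2 of the 8 libraries reached 10, which held for 33 of the 42 members and for 12107 of 17091 features. The 9 members not tested were Zbp1, Oas1a, Oasl2, Ifitm1, Mx2, Rsad2, Cmpk2, Psmb8 and Psmb9, which include some of the most strongly interferon-induced antiviral genes. Ifitm1 was at 1 in all 8 libraries. Per kilobase of the longest annotated transcript, the highest mean levels were those of Ifitm3 (469 per kb) and Ifitm2 (388 per kb), membrane proteins that block virus entry. Samd9l, a growth-restraining antiviral protein, followed at 150 per kb and Eif2ak2, the kinase PKR that halts translation on double-stranded RNA, at 128 per kb.

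The members' levels set part of the WT libraries apart from all other libraries, at both oxygen levels. Both WT libraries numbered 2, one in hypoxia and one in normoxia, stood above the other 6. In 27 of the 42 members both of them exceeded each of the other 6 libraries, while 6.59% of all 17091 features did so. Among the 25 members at 10 or more in at least 2 of those other 6 libraries the count was 16, against 7.74% of such features. The members' median deviation from their own mean over the 8 libraries was 0.76 in WT hypoxia library 2 and 0.98 in WT normoxia library 2 (log2 scale). In the other 6 libraries it lay between -0.38 and -0.19, and over all tested features it was between 0.00 and 0.01 in each library. Summed over members, WT hypoxia library 2 held 7246 and WT normoxia library 2 held 6652 normalised reads, against 3673 to 3963 in the others. This ordering was noticed in the data and is a description, with no test. In bulk RNA more cells with these transcripts and more of the transcripts per cell cannot be told apart.

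**Figure D1:**
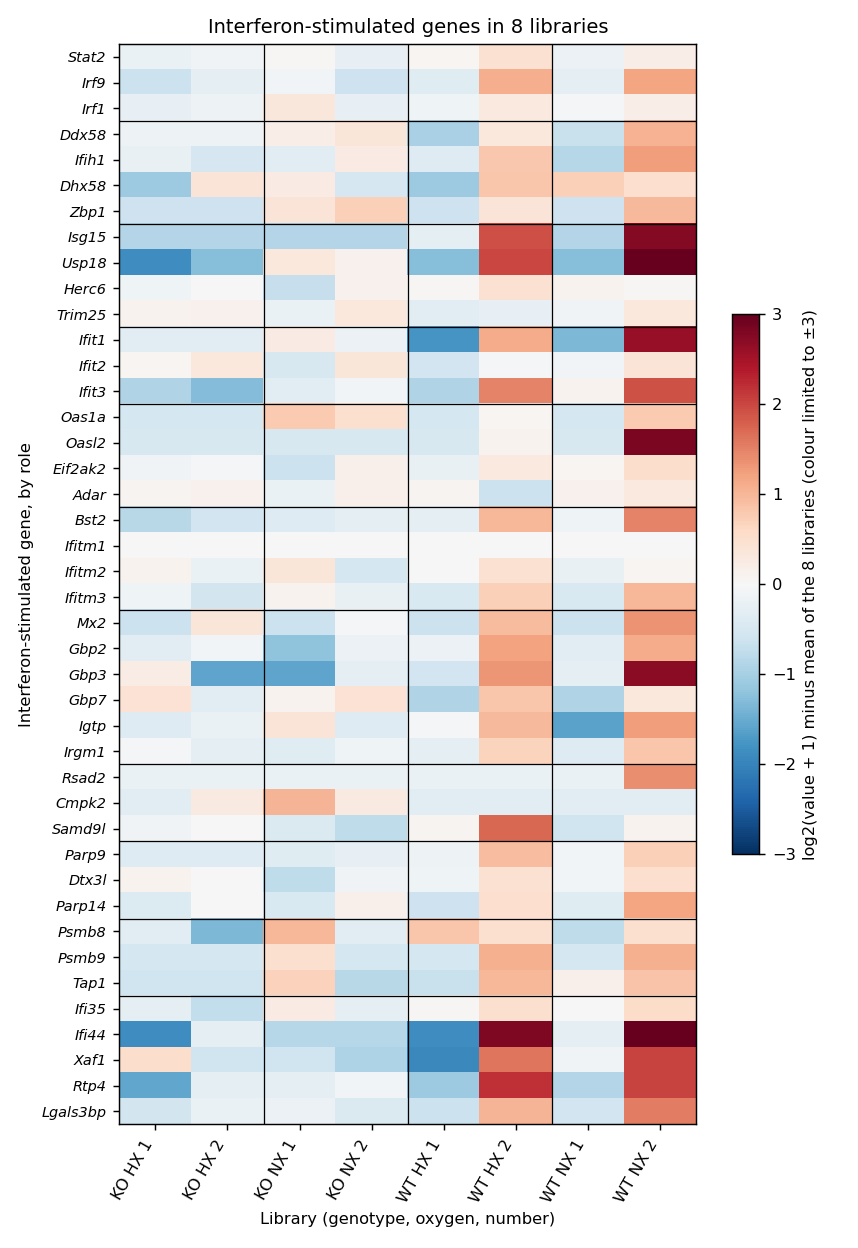
Level of each of the 42 members (rows, grouped by role) in the 8 libraries (columns), as log2(value + 1) minus the gene's mean over the libraries. The columns WT HX 2 and WT NX 2 are red in most rows, with 36 (WT HX 2) and 40 (WT NX 2) of the 42 members above their own mean.

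In what follows, 2 values for a group are those of its library numbered 1 and then of its library numbered 2. Isg15, the ubiquitin-like modifier attached to proteins during infection, was at 1 and 1 in KO hypoxia and at 1 and 1 in KO normoxia, against 2 and 13 in WT hypoxia and 1 and 24 in WT normoxia. Usp18, which removes ISG15 and restrains the interferon receptor, had 1 and 2 in KO hypoxia and 8 and 7 in KO normoxia, against 2 and 28 in WT hypoxia and 2 and 68 in WT normoxia. For both genes only the WT libraries numbered 2 passed 10. Herc6, the mouse ligase that attaches ISG15, had 148 and 163 in KO hypoxia and 99 and 176 in KO normoxia, against 166 and 221 in WT hypoxia and 174 and 166 in WT normoxia. Trim25, the ubiquitin ligase that acts with RIG-I, had 148 and 149 in KO hypoxia and 119 and 170 in KO normoxia, against 109 and 116 in WT hypoxia and 126 and 171 in WT normoxia. Neither Herc6 nor Trim25 set the WT libraries numbered 2 apart.

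The IFIT proteins bind foreign RNA and stop its translation. Ifit1 had 7 and 7 in KO hypoxia and 11 and 8 in KO normoxia, against 2 and 21 in WT hypoxia and 3 and 61 in WT normoxia. Ifit3 had 3 and 2 in KO hypoxia and 5 and 6 in KO normoxia, against 3 and 20 in WT hypoxia and 7 and 27 in WT normoxia. Ifit2, the neighbouring gene on chromosome 19, was far higher and much flatter, and it did not set the WT libraries numbered 2 apart from the other 6. It had 418 and 498 in KO hypoxia and 286 and 517 in KO normoxia, against 270 and 390 in WT hypoxia and 379 and 525 in WT normoxia.

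Among the transcription factors, Irf9, the DNA-binding part of ISGF3, had 72 and 92 in KO hypoxia and 107 and 73 in KO normoxia, against 88 and 240 in WT hypoxia and 92 and 257 in WT normoxia. Stat2 followed with a smaller step, at 69 and 57 in WT libraries numbered 2 (hypoxia, then normoxia) and between 42 and 52 in the other 6 libraries. Irf1, a factor strongly induced by interferon gamma, had 169 and 181 in KO hypoxia and 255 and 169 in KO normoxia, against 183 and 246 in WT hypoxia and 192 and 229 in WT normoxia. For Irf1 the highest library was a KO normoxia one, and the groups overlapped.

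The RNA sensors were split. Ifih1 had 33 and 27 in KO hypoxia and 30 and 46 in KO normoxia, against 29 and 68 in WT hypoxia and 21 and 93 in WT normoxia. Ddx58 had 148 and 146 in KO hypoxia and 187 and 211 in KO normoxia, against 83 and 203 in WT hypoxia and 103 and 340 in WT normoxia. Within WT both sensors had higher values in the library numbered 2, but for Ddx58 KO normoxia library 2 lay above WT hypoxia library 2. Dhx58, which modulates both sensors, stayed between 3 and 14, and Zbp1, which senses Z-form nucleic acid, between 1 and 5.

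Of the enzymes that act on double-stranded RNA, Eif2ak2 had 501 and 520 in KO hypoxia and 343 and 604 in KO normoxia, against 464 and 657 in WT hypoxia and 564 and 778 in WT normoxia. Adar, which edits adenosine in double-stranded RNA, had 284 and 294 in KO hypoxia and 233 and 301 in KO normoxia, against 283 and 171 in WT hypoxia and 292 and 330 in WT normoxia. In Adar the lowest library was WT hypoxia 2, so it did not share the pattern. Oas1a, which makes the second messenger that activates RNase L, stayed between 1 and 4. Oasl2, an OAS-like protein, was at 19 in WT normoxia library 2 and at 1 or 2 elsewhere. Among the remaining effectors, Rsad2 (viperin), which makes a chain-terminating nucleotide, was at 5 in WT normoxia library 2 and at 1 elsewhere. Cmpk2, a nucleotide kinase beside it in the genome, was at 1 in all 4 WT libraries and between 1 and 4 in KO.

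Membrane-bound factors showed the pattern in part. Bst2 (tetherin), which holds budding virus at the cell surface, had 30 and 36 in KO hypoxia and 41 and 44 in KO normoxia, against 45 and 108 in WT hypoxia and 49 and 154 in WT normoxia. Its 4 KO libraries all lay below its 4 WT libraries. Ifitm3 had 270 and 201 in KO hypoxia and 316 and 252 in KO normoxia, against 214 and 487 in WT hypoxia and 216 and 586 in WT normoxia. Ifitm2 had 266 and 216 in KO hypoxia and 319 and 173 in KO normoxia, against 246 and 341 in WT hypoxia and 212 and 258 in WT normoxia. The Ifitm genes are near copies of one another and may share reads. They lie on chromosome 7 in the annotation used here (GENCODE M21, GRCm38), where the end of Ifitm3 is 210613 bases before the start of Mir210, the targeted microRNA gene. Mir210 itself was at 1 in all 8 libraries, so its value does not check the labels.

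The interferon-induced GTPases Gbp2, Gbp3, Gbp7, Igtp and Irgm1 act in the defence against intracellular microbes, and Mx2 restricts viruses. Gbp2 had 40 and 47 in KO hypoxia and 21 and 44 in KO normoxia, against 44 and 118 in WT hypoxia and 40 and 109 in WT normoxia. Irgm1 had 177 and 152 in KO hypoxia and 142 and 169 in KO normoxia, against 151 and 294 in WT hypoxia and 140 and 326 in WT normoxia. Gbp3 reached 14 and 38 and Igtp 17 and 21 in the WT libraries numbered 2 (hypoxia, then normoxia), with at most 6 and 11 for these genes elsewhere. Gbp2, Irgm1, Gbp3, Igtp and Mx2 put the WT libraries numbered 2 on top, which made this 5 of 6 GTPases. Gbp7 did not, with 14 in both KO hypoxia library 1 and KO normoxia library 2 against 13 in WT normoxia library 2.

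Parp9, Dtx3l and Parp14 encode ADP-ribosyltransferases and a ubiquitin ligase that act together in the interferon response. Parp9 had 91 and 90 in KO hypoxia and 92 and 100 in KO normoxia, against 106 and 225 in WT hypoxia and 112 and 194 in WT normoxia. As with Bst2, the 4 KO libraries all lay below the 4 WT libraries. Dtx3l had 104 and 98 in KO hypoxia and 57 and 90 in KO normoxia, against 89 and 133 in WT hypoxia and 91 and 139 in WT normoxia. Parp14 was at 55 and 90 in the WT libraries numbered 2 (hypoxia, then normoxia) and between 25 and 43 elsewhere. Parp9 and Dtx3l overlap by 682 bases on opposite strands, and Tap1 and Psmb9 by 212, so without known strand use their reads cannot be parted with certainty. Tap1, the peptide transporter of antigen presentation, had 33 and 33 in KO hypoxia and 82 and 28 in KO normoxia, against 31 and 101 in WT hypoxia and 56 and 91 in WT normoxia. The immunoproteasome subunits Psmb8 and Psmb9 stayed under 10 in every library.

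The other induced genes in the table, 5 of them, varied in the size of the step. Ifi44 had 1 and 5 in KO hypoxia and 3 and 3 in KO normoxia, against 1 and 49 in WT hypoxia and 5 and 64 in WT normoxia. Rtp4, a receptor-transporting protein, had 4 and 11 in KO hypoxia and 11 and 13 in KO normoxia, against 6 and 67 in WT hypoxia and 7 and 59 in WT normoxia. In both genes the WT libraries numbered 1 lay among or below the KO libraries. Lgals3bp, a secreted glycoprotein, had 80 and 102 in KO hypoxia and 103 and 86 in KO normoxia, against 75 and 239 in WT hypoxia and 78 and 343 in WT normoxia. Xaf1, a pro-apoptotic gene, had 10 and 4 in KO hypoxia and 4 and 3 in KO normoxia, against 1 and 22 in WT hypoxia and 6 and 30 in WT normoxia. Ifi35 had 116 and 85 in KO hypoxia and 169 and 116 in KO normoxia, against 146 and 200 in WT hypoxia and 145 and 209 in WT normoxia. All 5 of these genes were highest in the WT libraries numbered 2. Members with a mean under 100, such as Isg15, Ifit1, Ifi44 and Rtp4, were given in full after their values were seen.

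**Figure D2:**
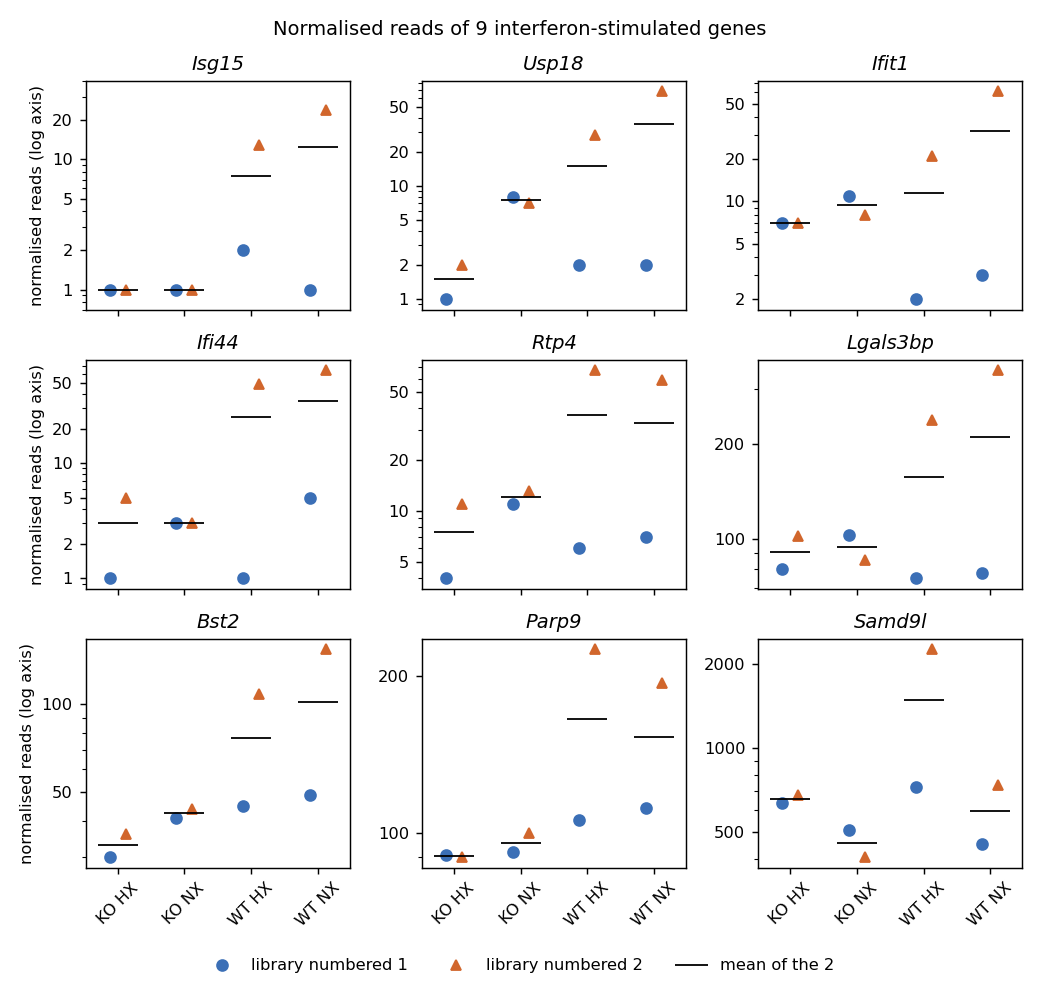
Normalised reads (log axis) of 9 members in the 4 groups, with circles for libraries numbered 1, triangles for libraries numbered 2 and bars for the mean of both. In WT each triangle lies above the circle of its group in all 9 genes, as for Bst2 at 108 against 45 in WT HX and 154 against 49 in WT NX. This follows from the choice of genes, since all 9 are members with both WT libraries numbered 2 above the others. Members without that pattern are not drawn.

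Within WT, library 2 was higher than library 1 in 37 of 42 members in hypoxia (median log2 difference 1.15) and in 38 of 42 in normoxia (median 1.43). Over all tested features the medians were -0.01 in both. The 27 members whose WT libraries numbered 2 stood above the other 6 libraries meet this order by definition. Within KO, library 2 was higher in 20 and lower in 13 members in hypoxia, and higher in 19 and lower in 18 in normoxia, with a median of 0.00 in each. The log2 distance between the 2 libraries of a group correlated across the 33 tested members at r = 0.75 between WT hypoxia and WT normoxia, and across all 12107 tested features at 0.57. Of the 33 members, 25 reached 10 in at least 2 of the 6 libraries other than the WT ones numbered 2. The rest passed the filter only with the help of those WT libraries, and r was not computed without them. Members are not independent of one another, and this correlation is a description.

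KO was compared with WT to ask whether the cells named KO differ in these genes. By limma, with adjustment over all 12107 tested features, 0 of 33 tested members were called over both oxygen levels, where 0.0248% of all features were called. At an unadjusted p under 0.05 there were 4 of 33 members, all lower in KO: Bst2, Parp9, Ifi35 and Gbp2. At that threshold stood 735 of the 12107 features (6.07%), of which 325 were lower in KO. Bst2 averaged 37.8 ± 6.13 in KO and 89.0 ± 52.0 in WT (SD, n = 4 each), a log2 fold change of -1.04 ± 0.38 (SE, limma adjusted p = 0.699). For Parp9 the averages were 93.2 ± 4.57 in KO and 159 ± 59.4 in WT, with -0.69 ± 0.27 and a limma adjusted p = 0.742. The SD in WT was far wider than in KO for both genes, and both WT libraries numbered 2 lay above both numbered 1. Irf9 differed by -0.81 ± 0.38 (limma adjusted p = 0.828). All of these adjusted p values are far from the threshold of 0.05. The test treats the 4 libraries of a genotype as independent. Same-numbered WT libraries shared their deviations (r = 0.57 over all tested features), so these SEs and p values may be too small.

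The members' median KO to WT difference was close to 0 among libraries numbered 1 and below -1 among those numbered 2. Over both oxygen levels 34 of 42 members had a negative KO to WT log2 fold change, with a median of -0.41, where 52.2% of all tested features were negative with a median of -0.01. Among libraries numbered 2 KO was lower in 37 members and higher in 4, with a median of -1.08. For the 27 members whose WT libraries numbered 2 stood above the other 6 libraries, this direction follows from that definition. Among libraries numbered 1 it was lower in 16 and higher in 22, with a median of 0.05. Over all tested features these medians were -0.01 and -0.02. With both WT libraries numbered 2 left out, the median over both oxygen levels was 0.04 in place of -0.41. This choice was made after the data were seen and removes the libraries that define the pattern, so it is no separate support. The labels do not say what a library number stands for, and what sets these libraries apart was not tested.

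**Figure D3:**
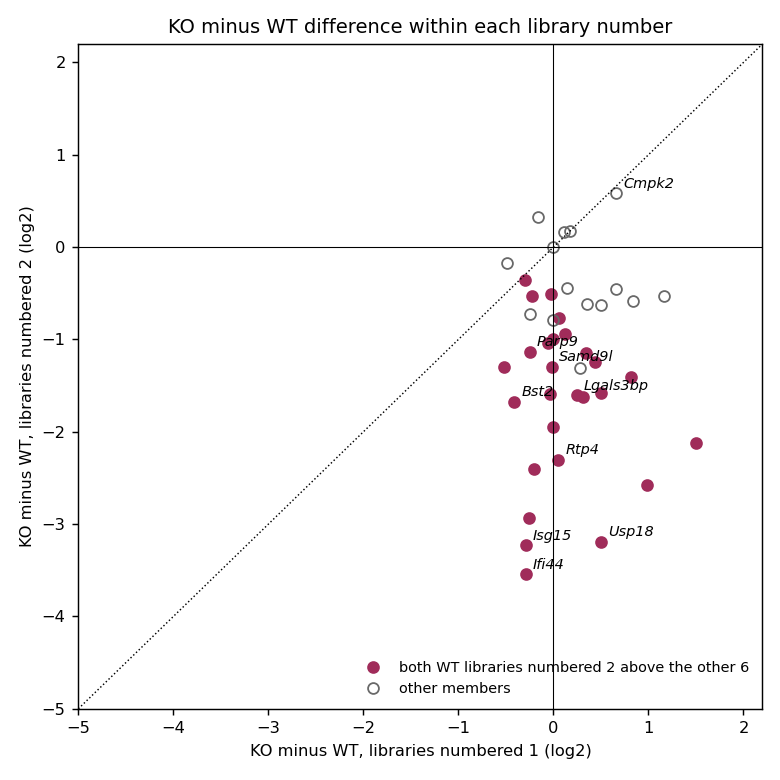
KO minus WT difference of each member on the log2(value + 1) scale, among libraries numbered 1 (x axis) and among libraries numbered 2 (y axis), averaged over both oxygen levels. Filled points are members with both WT libraries numbered 2 above the other 6, which by itself places them below 0 along y. Points spread around 0 along x (median 0.05) and lie mostly below 0 along y (median -1.08).

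In 15 of the 42 members KO was lower under both numbers, and in 3 it was higher under both. All of the 15 but Dhx58 and Herc6 had both WT libraries numbered 2 above every other library. For these members the lower KO value under number 2 follows from that pattern, so the 15 do not show agreement between the numbers. Under number 1 alone KO was lower in 16 members and higher in 22. The share of all features lower under both was not computed. KO was lower in 52.6% of tested features under number 1 and in 50.7% under number 2. Some of the 15 were near 0 among libraries numbered 1, such as Samd9l (-0.015), Stat2 (-0.03) and Irf9 (-0.035). For Bst2 the KO minus WT log2 difference was -0.41 among libraries numbered 1 and -1.67 among those numbered 2. For Parp9 these differences were -0.25 and -1.13, and for Gbp2 they were -0.52 and -1.30. Eif2ak2 had much the same difference under both, at -0.30 and -0.35. Bst2 and Parp9 were the 2 members whose 4 KO libraries all lay below all 4 WT libraries, a pattern that 1.3% of all 17091 features showed. For 0 members did all KO libraries lie above all WT libraries.

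At each oxygen level alone 0 of 33 tested members were called by limma, and 0% of all tested features were called in either comparison, with 910 features at an unadjusted p under 0.05 in hypoxia and 363 in normoxia. In hypoxia the median over 42 members was -0.39 (33 lower and 7 higher in KO), and 1 member, Ifi35, had an unadjusted p under 0.05 at -0.78 ± 0.31 (limma adjusted p = 0.641). In normoxia the median was -0.50 (33 lower and 8 higher in KO), with 0 members at an unadjusted p under 0.05. Leaving out WT hypoxia library 2 took the hypoxia median to 0.00, and leaving out WT normoxia library 2 took the normoxia median to 0.05. Leaving out WT hypoxia library 1 gave -1.07, and leaving out WT normoxia library 1 gave -1.03.

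Hypoxia was then compared with normoxia. The hypoxia programme itself was present in both genotypes: Slc16a3, the lactate exporter MCT4, rose in KO (634 and 606 in hypoxia against 25 and 9 in normoxia, limma adjusted p = 7.1e-04) and in WT (333 and 443 against 15 and 13, limma adjusted p = 0.00142). Of the 5 hypoxia check genes 5 rose in each genotype. Of the 33 tested members 0 were called in KO, where 0.0578% of features were, and 0 in WT, where 0.107% were. Over both genotypes 0 members were called by limma, against 0.363% of features. At an unadjusted p under 0.05 there were 0 members in KO and 1 in WT, and the same gene, Samd9l, over both genotypes. Over all features the shares at that threshold were 3.2% in KO, 6.33% in WT and 5.29% over both genotypes. All 4 groups share 1 estimate of spread per gene, so the gap between the WT libraries also widens the SE in KO. Usp18, with the lowest log2 fold change among members in KO, was at -1.79 ± 1.37 there (SE, limma adjusted p = 0.916). The 0 calls in KO therefore do not show a lack of response, and a fit of the KO libraries alone was not run.

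Samd9l had 633 and 678 in KO hypoxia against 508 and 406 in KO normoxia, and 726 and 2254 in WT hypoxia against 452 and 738 in WT normoxia. Each hypoxia library exceeded the normoxia library of the same genotype and number, yet the WT normoxia library 2 lay above 3 of the 4 hypoxia libraries. The log2 fold change over both genotypes was 0.84 ± 0.32 (SE, limma adjusted p = 0.867), and WT alone gave 1.15 ± 0.45 (limma adjusted p = 0.776). Most other members leaned the opposite way without reaching the test. Ifit3 was at -0.81 ± 0.62, Ddx58 at -0.48 ± 0.37 and Usp18 at -1.21 ± 0.97 over both genotypes (log2 fold changes, limma adjusted p = 0.922 for each).

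Over both genotypes 31 of 42 members had a negative hypoxia to normoxia log2 fold change and 9 a positive one, with a median of -0.18, while 49.6% of all tested features were negative with a median of 0.00. In KO 25 members were lower and 13 higher in hypoxia (median -0.10), and in WT 28 were lower and 11 higher (median -0.17). The 4 pairs of libraries with the same genotype and number gave medians of -0.23 in KO 1, -0.04 in KO 2, -0.02 in WT 1 and -0.28 in WT 2. The WT median turned to 0.46 without WT hypoxia library 1 and to 0.46 without WT normoxia library 2, and the median over both genotypes to 0.08 and 0.15. The KO median stayed between -0.20 and -0.06 with any single library left out. For 0 members did the 4 hypoxia libraries all lie below the 4 normoxia libraries, against 1.21% of all features.

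**Figure D4:**
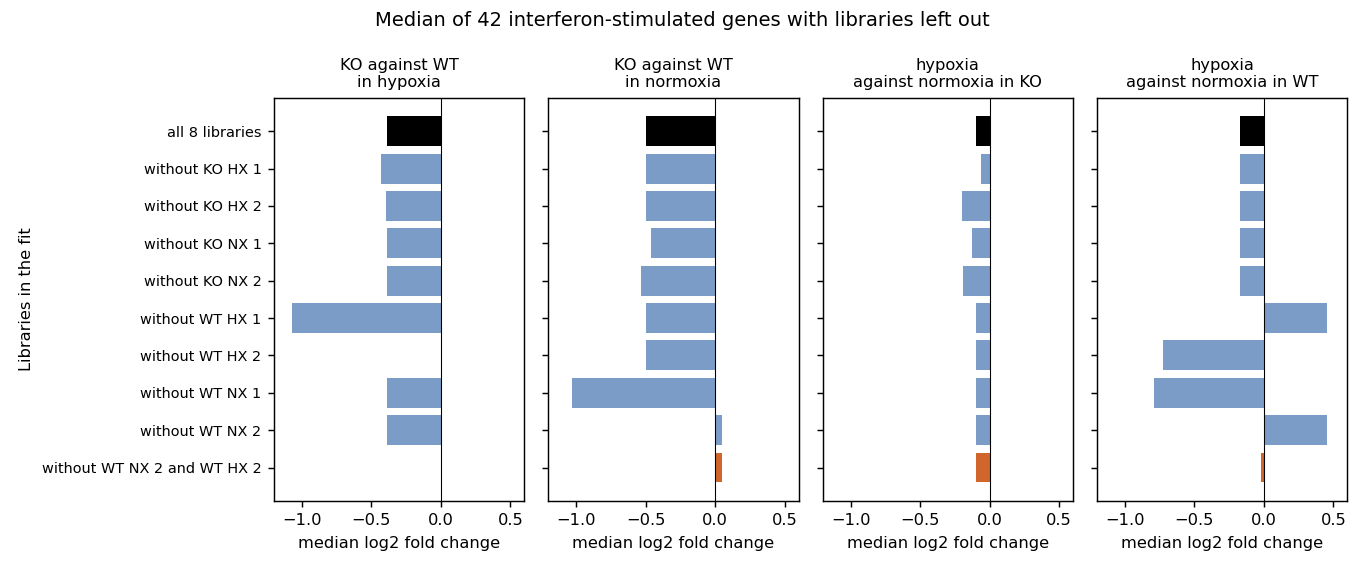
Median log2 fold change of the 42 members in 4 comparisons (panels), with all 8 libraries and with libraries left out (bars from 0). In the KO against WT panels the bars without a WT library numbered 1 of that oxygen level are longest (-1.07 and -1.03), and a bar of length 0, as without WT HX 2 in hypoxia, is not visible.

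Whether the genotypes answered low oxygen differently was tested as the hypoxia response in KO minus that in WT. By limma 0 of 33 members and 0% of all features were called, and at an unadjusted p under 0.05 there were 0 members and 380 features. The median over 42 members was -0.02, with 20 positive, 21 negative and Ifitm1 at 0. The smallest p among members belonged to Adar, at 0.62 ± 0.39 (SE, limma adjusted p = 0.857), followed by Ifit2 at 0.70 ± 0.46 (limma adjusted p = 0.857). Next came Xaf1 (1.85 ± 1.56), Trim25 (0.44 ± 0.38) and Dtx3l (0.54 ± 0.48), log2 differences with SE and the same limma adjusted p = 0.857. Adar was lower in hypoxia in WT libraries numbered 2 (171 against 330) and flat in WT libraries numbered 1 (283 against 292).

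The other genes of the pathway were taken from lists drawn up from general knowledge. Of the interferon ligands and receptors 8 of 16 were in the table and 5 were tested, with 0 called by limma in any of the 7 comparisons and 0 at an unadjusted p under 0.05. Ifna4 and Ifne, both interferons, were at 1 in all 8 libraries. The receptor chains were present, with Ifnar1 at 569 and 555 in KO hypoxia and 538 and 637 in KO normoxia, against 561 and 477 in WT hypoxia and 570 and 651 in WT normoxia. Ifnar1 did not set the WT libraries numbered 2 apart. Of the 8 genes 1 had the pattern, which 6.59% of all 17091 features showed. This was Il10rb, a chain shared by the receptors of interferon lambda and interleukin-10. It was at 303 and 271 in those libraries (hypoxia, then normoxia) and between 202 and 270 elsewhere.

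Of 12 genes of JAK-STAT signalling and its brakes 11 were tested, with 0 called by limma and 0 at an unadjusted p under 0.05 in any comparison. Jak1, the most abundant kinase of the list, stayed between 1775 and 2360. Of 24 sensing and induction genes 21 were tested and 0 called by limma, with 0 to 2 genes per comparison at an unadjusted p under 0.05. Irf7, the factor that amplifies interferon output, was at 18 in WT normoxia library 2 and between 1 and 5 in the other 7 libraries. Aim2 went the other way, between 12 and 18 in KO and between 1 and 6 in WT. Il10rb, Irf7, Aim2 and Tek, and the genes named in the next lists apart from B2m, were singled out after their values were seen.

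Of 78 further interferon-stimulated genes 64 were in the table and 38 tested, with 0 called by limma and 0 to 5 genes per comparison at an unadjusted p under 0.05. The 5 came from KO against WT over both oxygen levels, 2 higher and 3 lower in KO, where 6.07% of all features stood at that threshold. The 2 higher ones were Ly6e, at 671 to 839 in KO and 471 to 596 in WT, and Pml, at 343 to 415 and 223 to 322. In 17 of the 64 both WT libraries numbered 2 exceeded the other 6, a pattern that 6.59% of all 17091 features showed. The list's KO to WT median was 0.00 among libraries numbered 1 and -0.26 among those numbered 2. Irgm2 and Iigp1, GTPases of the same family as Igtp, were near the floor except in WT libraries numbered 2. Irgm2 was at 20 and 37 there (hypoxia, then normoxia), and Iigp1 at 31 and 15. Mx1, Oas3 and Ifi44l were at 1 in all 8 libraries. The MHC class I list had 20 of 20 genes in the table, 18 tested, 0 called by limma, 0 to 3 per comparison at an unadjusted p under 0.05 and 5 with the pattern. B2m, the light chain of MHC class I, had 2325 and 2174 in KO hypoxia and 1625 and 1757 in KO normoxia, against 2161 and 7195 in WT hypoxia and 1988 and 4090 in WT normoxia. The heavy chain H2-K1 did not follow it, at 924 and 669 in WT libraries numbered 2 (hypoxia, then normoxia) and between 561 and 764 in the other 6.

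Properties of the libraries were set beside this pattern. The values of a library summed to between 7928389 and 8676920 normalised reads. By the spacing of low values 1 sequenced read was worth an estimated 0.66 to 1.39 of these, with 1.05 in WT hypoxia library 2 and 1.19 in WT normoxia library 2. The trend of level with transcript length ran in opposite directions in these 2 libraries, at -0.14 and 0.09 per doubling of length, and between -0.17 and 0.16 over all 8. Of 14 leukocyte markers 9 were in the table and 0 had the pattern. The pattern was shown by 6.59% of all 17091 features, so 0 of 9 genes says little. The summed level of these markers was 85 in WT hypoxia library 2 and 86 in WT normoxia library 2, against 71 to 107 in the others. Ptprc, which marks all leukocytes, stayed between 1 and 6. Endothelial markers summed to 44 and 45 in the WT libraries numbered 2 and to 13 to 32 in the other 6, with Pecam1 at 1 or 2 in every library. Among the 5 endothelial markers present, 1 had the pattern, namely Tek, an angiopoietin receptor, at 27 and 15 in the WT libraries numbered 2 (hypoxia, then normoxia) and between 3 and 9 elsewhere. Keratinocyte and epithelial markers summed to 39 and 29 there and to 37 to 68 elsewhere. The 10 fibroblast markers were all present, and 3 of them (Col3a1, Dcn and Lum) had the pattern. Lum had 3 and 4 in KO hypoxia and 1 and 3 in KO normoxia, against 6 and 36 in WT hypoxia and 4 and 27 in WT normoxia. The part of these differences in the members' levels was not tested.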

How the data were processed

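The deposited values are scores: read counts per gene that the authors normalised and rounded to whole numbers, judged from the table's own name and values. Which normalization, aligner, build and strand setting were used is not given in the sources used here. Per the labels' protocols, total RNA libraries were made with a small RNA set for SOLiD. Unused sample columns numbered 0. Values were taken as log2(value + 1), so folds of low genes are understated. Features at 10 or more in at least 2 of 8 libraries were tested with limma 3.58.1 (R 4.3.3, trend, 4 groups, no replicate block) in 7 comparisons, with Benjamini-Hochberg adjustment over all 12107 features within each. Moderated tests had 10.2 degrees of freedom. An exact test of 2 libraries against 2 cannot go below p = 0.333. On simulated data for KO against WT over both oxygen levels (11987 genes), the test recovered 36% of 50 genes changed 2-fold and 98% of 50 changed 4-fold, with 6 false calls over the run. Noise was drawn separately for each library, while in the data deviations of same-numbered WT libraries correlated at 0.57 over all tested features. Recovery and false calls may therefore differ in the data. The changed genes left out those of low mean, and every gene was given the same spread. The recovered shares therefore do not hold for members with low values or a wide spread. Ifi44, for example, had a log2 fold change of -1.92 ± 1.02 in this comparison (SE, limma adjusted p = 0.868). Depth was estimated from which whole numbers occur among low values (1 read was worth 0.66 to 1.39), since rounding hides whole reads, and a value near 10 rests on few reads.

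Members, lists and naming rule were chosen with earlier results of these data known. Every member is accounted for. Values in every library are given for members with a mean of at least 100 and for the 5 with the smallest p in the 2 pooled comparisons and the difference. From other lists, called genes or the 3 of highest mean could be named, and any others were chosen after their values were seen. Lists of markers were used for description. The alternatives were another pseudocount, other filters and scalings, a replicate block, left-out libraries and removal of the length trend. Genes that share sequence (Ifit, Ifitm, Gbp, Oas and Irg families) may share reads. An item withheld for evaluation is not reported here.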

Additional observations from a re-analysis of the deposited data

How the results depend on the processing

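Of the 33 tested members 0 were called in each of the 7 comparisons under each alternative run, including those that leave out libraries. The medians over 42 members moved by less than their spread between replicates (0.61, pooled SD within groups) under a pseudocount of 8, both other filters, both rescalings and removal of the length trend. This spread was larger than each of the 7 medians in size, so it is a loose yardstick. It came mostly from WT, with median deviations of -0.375 and 0.763 in hypoxia and -0.301 and 0.98 in normoxia. In KO these were -0.316 and -0.272 in hypoxia and -0.198 and -0.192 in normoxia. The replicate block left every median as it was (-0.41 for KO against WT over both oxygen levels) and called 0 members, and over all features it gave 11 calls for hypoxia against normoxia in KO (7 without it), 19 in WT (13) and 56 over both genotypes (44). No library number is tied to a batch by the labels. Library numbers correlated in their deviations at 0.57 between the WT groups, 0.23 between the KO groups, 0.11 between genotypes in normoxia and 0.02 in hypoxia.

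With single libraries left out the medians ranged from -1.07 to 0.00 for KO against WT in hypoxia, -1.03 to 0.05 in normoxia and -0.81 to -0.15 over both oxygen levels. For hypoxia against normoxia they ranged from -0.79 to 0.46 in WT, -0.20 to -0.06 in KO and -0.52 to 0.15 over both genotypes, and for the difference of responses from -0.63 to 0.70. In each of these but hypoxia against normoxia in KO, the extremes came from leaving out a WT library. Without both WT libraries numbered 1 the KO to WT medians were -1.07 in hypoxia, -1.03 in normoxia and -1.04 over both oxygen levels, and without both numbered 2 they were 0.00, 0.05 and 0.039 in the same order; both were chosen after the data were seen. Without WT hypoxia library 2 and KO normoxia library 1 the hypoxia median in WT was -0.73 and the difference of responses 0.53.

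Over all features the calls over both oxygen levels in KO against WT were 3 with all libraries, 0 with any single one left out, and 30 with no filter on low values, where 0 members were among them. With no filter 14 features were called in hypoxia, 19 in normoxia and 29 in the difference, against 0 in each. In hypoxia against normoxia the calls ran from 1 to 20 in WT (13 with all libraries) and from 4 to 760 in KO (7), the last without KO normoxia library 2, and from 12 to 50 over both genotypes (44) with single libraries left out. No filter gave 28 in WT and removal of the length trend 11 in KO. Without both WT libraries numbered 2 they were 0 in WT, 2 in KO and 2 over both, without both numbered 1 they were 0, 2 and 4, and without WT hypoxia library 2 and KO normoxia library 1 they were 6, 7 and 25. The cause was not tested. Most members rest on values under 100, where counting error is large.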

Other observations

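The pattern of the WT libraries numbered 2 reached beyond interferon-stimulated genes. Of 17091 features 1126 had both of these libraries above the other 6, and 758 of these reached at least 50 in both. Of these 758, 16 were members. Ranked by the lower of the 2 values over the highest of the other 6, 1 member, Rtp4, stood among the first 20, at 4.54-fold. The cut at 50 was set on the same 2 libraries and removes low genes, so this count is a description only. Isg15 and Ifi44 were below 50 in at least one of these libraries and so outside the ranking, with ratios of 6.5 and 9.8. Genes of secreted and matrix proteins were among those ahead of it. Apoe, the lipid carrier apolipoprotein E, had 25 and 17 in KO hypoxia and 9 and 18 in KO normoxia, against 17 and 307 in WT hypoxia and 19 and 312 in WT normoxia. Abi3bp, an extracellular matrix protein, was at 210 and 310 in the WT libraries numbered 2 (hypoxia, then normoxia) and between 11 and 30 in the others. Comp, a cartilage matrix protein, was at 144 and 146 there and between 11 and 25 elsewhere. Further down the first 20, Dpt, the matrix protein dermatopontin, was at 345 and 261 there and between 40 and 72 elsewhere.

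Ifi27l2a, an interferon-induced gene outside the list, also stood ahead of Rtp4 in that ranking. It had 7 and 8 in KO hypoxia and 20 and 16 in KO normoxia, against 24 and 118 in WT hypoxia and 17 and 124 in WT normoxia. C4b, a complement component, was at 94 and 99 in the WT libraries numbered 2 and between 3 and 25 in the others, and C1s, the complement protease, at 148 and 179 and between 26 and 53. These genes were picked from the ranking after the values were seen.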
